A study of Mus musculus with 16 samples.

Results

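The 31 genes described here cover bile acid synthesis, transport and canalicular export in mouse liver. They were chosen by symbol, and all 31 were found among the 19935 genes that the array's annotation named. By role, 7 belong to synthesis, 7 to uptake, 8 to canalicular export, 5 to export back to the blood and 4 to control. Each was read by 1 probe set. Ephx1, an epoxide hydrolase, was counted with control because it was given none of the other roles. The livers came from male PPARβ/δ knockout (KO) mice of mixed Sv129/C57Bl/6 background and from wild-type (WT) mice described as corresponding to them. The 16 mice formed 4 groups: 3 KO mice fasted for 24 h, 4 fed KO mice, 5 WT mice fasted for 24 h and 4 fed WT mice. The labels call these biological replicates, and every mouse had 1 array. The sources used here do not give the age of the mice, the deleted part of Ppard, or whether the WT mice were littermates. The design states 4 to 5 mice per group, whereas 3 arrays of fasted KO mice were analysed here.

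Bile acids are made from cholesterol in hepatocytes, by a classic route that starts with Cyp7a1 and an alternative route that runs through Cyp27a1 and Cyp7b1. Hepatocytes take them up again from portal blood through carriers of the Slc10 and Slco families, pump them into the bile canaliculus with ATP-binding cassette transporters, and can return them to the blood through basolateral pumps when bile flow is impaired. The bile acid receptor FXR (Nr1h4) and the hormone FGF15, which acts on hepatocytes through Fgfr4 and Klb, hold the cycle in check. PPARβ/δ is a fatty acid activated nuclear receptor.

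The 4 promoter windows below are printed because they belong to members that the results turn on or that share a motif. They are RefSeq windows of assembly GRCm38.p6, from 250 bases before to 50 bases after the annotated start, read 5′ to 3′ on the gene's strand. Windows were matched by symbol for 23 of the 31 members, 30 windows in all, and were searched on both strands. Abcb11 lies at chr2:69342567-69342866 on the minus strand and Slco1b2 at chr6:141629268-141629567 on the plus strand. Capitals in these 2 mark AGGNCANTGNCCT, an inverted repeat of the nuclear receptor half-site with a spacer of 1 base, the arrangement that FXR is known to bind.
Abcb11: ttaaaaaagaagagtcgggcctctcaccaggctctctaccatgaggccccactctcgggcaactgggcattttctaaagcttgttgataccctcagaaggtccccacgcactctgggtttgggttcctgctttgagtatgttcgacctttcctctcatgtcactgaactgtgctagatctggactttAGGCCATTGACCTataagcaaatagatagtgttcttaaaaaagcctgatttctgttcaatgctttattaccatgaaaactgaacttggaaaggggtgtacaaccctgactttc
Slco1b2: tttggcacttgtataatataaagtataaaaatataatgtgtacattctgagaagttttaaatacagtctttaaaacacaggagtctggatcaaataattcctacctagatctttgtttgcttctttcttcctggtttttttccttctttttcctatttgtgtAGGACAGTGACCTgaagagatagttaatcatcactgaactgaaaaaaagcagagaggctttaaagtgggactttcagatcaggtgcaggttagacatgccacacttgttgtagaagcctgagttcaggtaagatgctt
The repeat stood 63 to 51 bases upstream of the Abcb11 start and 88 to 76 bases upstream of the Slco1b2 start. Among all 32851 windows of this length, 29 (0.0883%) held it. The half-site AGGTCA, whose reverse TGACCT is part of both matches, was in 16.3% of all windows. Cyp8b1 lies at chr9:121916256-121916555 and Abcg5 at chr17:84682962-84683261, both on the minus strand. Capitals in these windows mark TATAAA, which 13.6% of all windows held.
Cyp8b1: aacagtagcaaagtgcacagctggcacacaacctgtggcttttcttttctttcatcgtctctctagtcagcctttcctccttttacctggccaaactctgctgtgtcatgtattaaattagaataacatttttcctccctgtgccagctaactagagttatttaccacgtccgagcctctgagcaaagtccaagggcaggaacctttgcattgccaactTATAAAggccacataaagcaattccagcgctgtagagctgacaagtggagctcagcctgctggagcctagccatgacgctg
Abcg5: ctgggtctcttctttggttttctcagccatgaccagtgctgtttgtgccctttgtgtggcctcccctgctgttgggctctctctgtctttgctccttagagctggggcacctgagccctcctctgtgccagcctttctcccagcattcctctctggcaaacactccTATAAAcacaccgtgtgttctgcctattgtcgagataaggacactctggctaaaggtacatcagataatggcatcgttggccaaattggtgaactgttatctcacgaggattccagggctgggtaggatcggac
TATAAA stood 31 to 26 bases upstream of the Cyp8b1 start and 84 to 79 bases upstream of the Abcg5 start. Abcg8 starts 110 bases from Abcg5 and runs the other way, so their windows share 209 bases. The same letters read in the opposite orientation 31 to 26 bases upstream of the Abcg8 start. A match is a description of these letters and not of a factor's binding.

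All values below are log2 intensities, levels unless a difference is named, and levels of different probe sets cannot be set against each other. Of the 31 members, 29 had a mean above log2 2.79, the 40th percentile of all genes, and Slc51a and Slc51b lay below it. The liver label held for hepatocyte markers: 7 of 8 were measured, and none lay below that limit in its mean. Their summed linear intensity was 26270 to 27195 in fasted KO mice, 24843 to 28550 in fed KO mice, 24850 to 27193 in fasted WT mice and 26036 to 27968 in fed WT mice. Ppard itself ranged from 4.36 to 4.58 in fasted KO mice, 4.45 to 5.00 in fed KO mice, 4.40 to 4.67 in fasted WT mice and 4.78 to 5.50 in fed WT mice. Since the deleted part is not given, this probe set checks nothing about the genotype labels. Among fed KO mice, 2 stood apart in acute phase genes, which encode liver proteins of inflammation. Over 12 such genes, mice 1 and 4 deviated from the gene means by 1.47 and 2.34 on the log2 scale. Fasted KO mice deviated by -0.52 to -0.35, fed KO mice 2 and 3 by -0.31 and 0.62, fasted WT mice by -0.83 to 0.10 and fed WT mice by -0.52 to -0.21. Values that rest on the fed KO group are therefore also given without mice 1 and 4 where a call was lost or where 1 of the larger differences moved. Fasted WT mouse 5 stood apart in 7 pancreatic acinar markers, with a summed intensity of 357, against 56.4 to 82.3 in the other fasted WT mice. The sums were 59.6 to 60.4 in fasted KO mice, 64.85 to 80.2 in fed KO mice and 60.0 to 74.0 in fed WT mice. Whether pancreatic RNA had a part in the fasted WT values was not tested. In whole liver, fewer cells of a type and less RNA per cell cannot be told apart.

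Fasting moved more of these genes than genotype did at the same threshold, a limma adjusted p under 0.05 over all 19935 genes. In KO mice, 4 members rose and 2 fell on fasting, against 1.87% of all genes called up and 1.80% called down. In WT mice, 8 members rose and 5 fell, against 3.30% of all genes up and 5.92% down. Since dim genes are seldom called, the share among the 11961 brighter genes is nearer to the members: 5.90% were called in KO mice and 14.6% in WT mice, in either direction. The KO calls were Cyp8b1, Slco1a4, Abcb4 and Abcc3 upward and Slc22a7 and Slco2b1 downward. The WT calls were Cyp8b1, Cyp39a1, Slco1a4, Abcb4, Abcc2, Abcg5, Abcc3 and Ephx1 upward and Cyp7b1, Slc10a5, Slc22a7, Abcb11 and Atp8b1 downward. The 2 fasting comparisons share no array in their means, but both take their spread from all 16 mice, so the calls are not independent. The same way in both were called 5 members (Cyp8b1, Slco1a4, Abcb4, Abcc3 and Slc22a7), 83.3% of the KO calls and 38.5% of the WT calls. The same shares over all genes were not computed, so nothing particular to the members can be read from these percentages. The median fasting difference over the 31 members was 0.08 in KO mice and 0.08 in WT mice, beside -0.02 and 0.02 over all genes. None of the 31 members passed the test of the difference between the genotypes' fasting responses (below), so a call in 1 genotype alone does not show that the responses differ. Without fed KO mouse 3, 11 members passed on fasting in KO mice (9 up, 2 down), and without fed KO mice 1 and 4, 2 passed (1 up, 1 down).

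**Figure D1:**
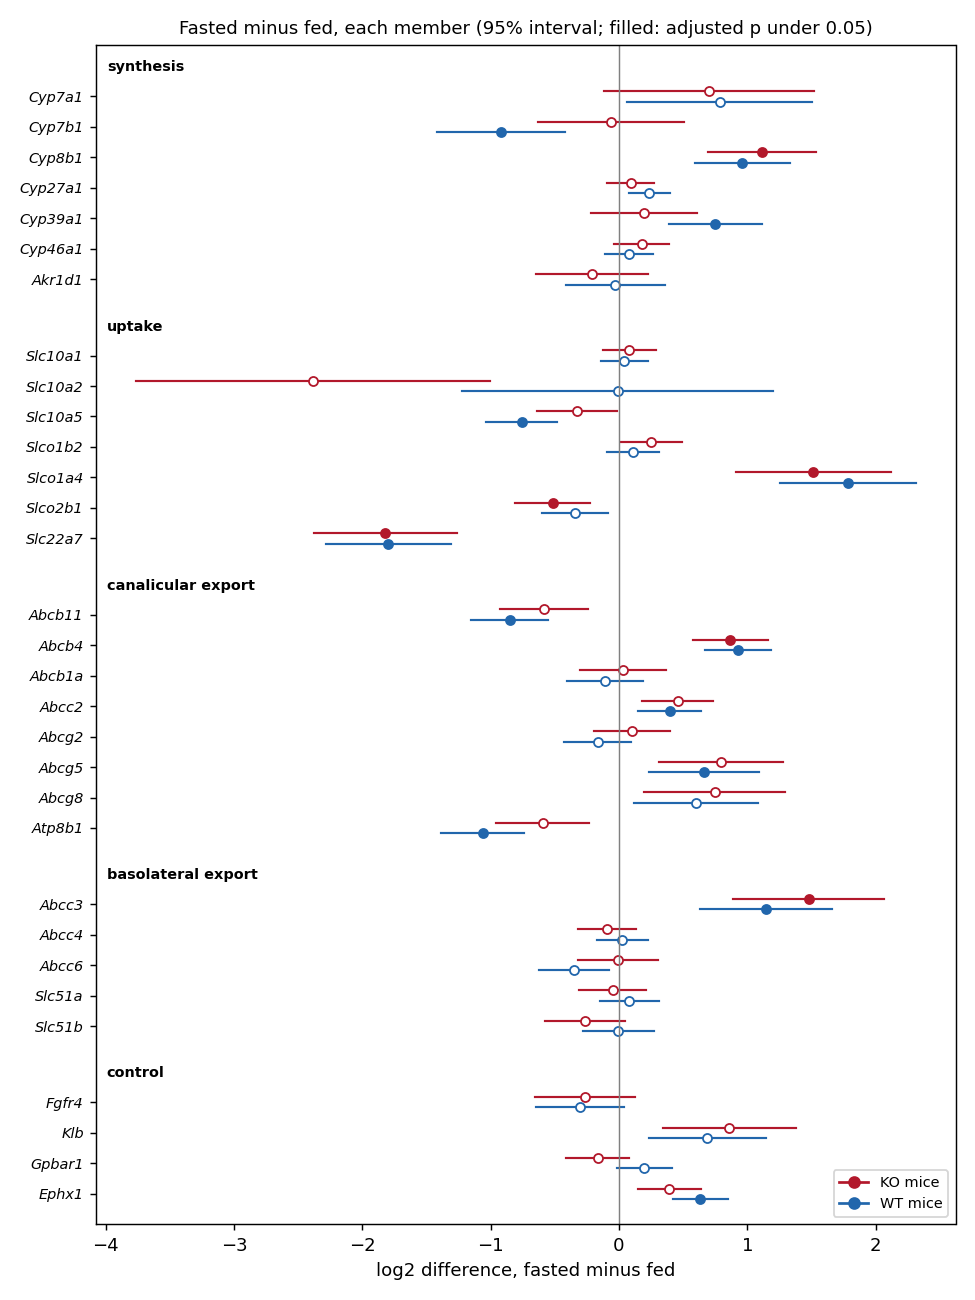
Fasting difference (fasted minus fed, log2 intensity, x axis) of each of the 31 members, grouped by role, in KO and WT mice; points are limma estimates, bars 95% intervals, and filled points passed an adjusted p of 0.05. Slco1a4, Abcc3, Cyp8b1 and Abcb4 lie to the right and Slc22a7 to the left in both genotypes.

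Among the synthesis genes, Cyp8b1 was the clearest. It encodes the sterol 12α-hydroxylase, which decides how much cholic acid is made. It stood at 10.56, 10.32 and 10.51 in fasted KO mice and at 9.30, 9.95, 9.07 and 9.06 in fed KO mice. In WT mice it stood at 10.70, 10.62, 10.64, 10.73 and 10.52 after fasting and at 9.13, 10.06, 9.76 and 9.78 in the fed state. Every fasted mouse of either genotype lay above every fed mouse. The difference was 1.12 ± 0.20 (SE; 2.17-fold, adjusted p = 0.00494) in KO mice and 0.96 ± 0.18 (1.95-fold, adjusted p = 0.00204) in WT mice. Without fed KO mice 1 and 4 the KO difference was 0.95 and no longer passed (adjusted p = 0.0741).

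Cyp7b1, the oxysterol 7α-hydroxylase of the alternative route, was 10.80, 10.60 and 10.70 in fasted KO mice and 10.47, 10.99, 10.67 and 10.90 in fed KO mice. In WT mice it was 11.08, 9.72, 9.67, 10.21 and 9.47 after fasting and 10.71, 10.90, 11.15 and 11.03 in the fed state. Fasted WT mouse 1 lay among the fed mice, and the other 4 fasted WT mice lay below all of them. The KO fasting difference was -0.06 ± 0.27 (adjusted p = 0.961), and Cyp7b1 fell by 0.92 ± 0.24 on the log2 scale in fasted WT mice (adjusted p = 0.0201). The WT value was -1.18 without fasted WT mouse 1. The WT call was lost without fed WT mouse 3, fed WT mouse 4 or fasted WT mouse 5, at differences of -0.89 to -0.78 and adjusted p of 0.0504 to 0.0719. It was also lost with a block for replicate number and in a fit of just the 2 compared groups.

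Cyp39a1, an oxysterol 7α-hydroxylase with 24-hydroxycholesterol as its substrate, was 6.54, 6.96 and 7.14 in fasted KO mice and 6.41, 6.70, 6.74 and 6.88 in fed KO mice, a difference of 0.20 ± 0.20 (adjusted p = 0.717). In WT mice it was 7.37, 6.64, 7.44, 6.99 and 6.94 after fasting and 6.19, 6.55, 5.98 and 6.57 in the fed state. The WT groups did not overlap, and Cyp39a1 rose by 0.75 ± 0.17 there (1.68-fold, adjusted p = 0.00977). Cyp7a1, the rate-limiting enzyme of the classic route, varied widely between fed mice. Its level was 9.20, 9.78 and 9.56 in fasted KO mice, 7.83, 9.97, 8.74 and 8.71 in fed KO mice, 9.83, 9.57, 9.66, 9.98 and 9.07 in fasted WT mice and 9.23, 9.47, 8.07 and 8.58 in fed WT mice. The fasting difference of 0.70 ± 0.39 in KO mice (adjusted p = 0.43) and of 0.79 ± 0.34 in WT mice (adjusted p = 0.179) did not pass. Its 95% intervals, -0.12 to 1.52 in KO mice and 0.07 to 1.51 in WT mice, do not show that it was steady. The KO difference was 0.37 without fed KO mouse 1, 1.09 without fed KO mouse 2 and 0.16 without fed KO mice 1 and 4 (adjusted p = 0.937).

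The other synthesis genes showed no called fasting difference. Cyp27a1, the mitochondrial sterol 27-hydroxylase, lay between 10.11 and 10.58 in all 16 mice, with fasting differences of 0.09 ± 0.09 in KO mice and 0.24 ± 0.08 in WT mice (adjusted p = 0.695 and 0.0636). Without fed WT mouse 3 the WT difference was 0.31 and passed (adjusted p = 0.0137). Akr1d1, the steroid 5β-reductase, had fasting differences of -0.21 ± 0.21 in KO mice and -0.03 ± 0.18 in WT mice. Cyp46a1, the cholesterol 24-hydroxylase best known from brain, lay between 2.97 and 3.46 in all mice.

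**Figure D2:**
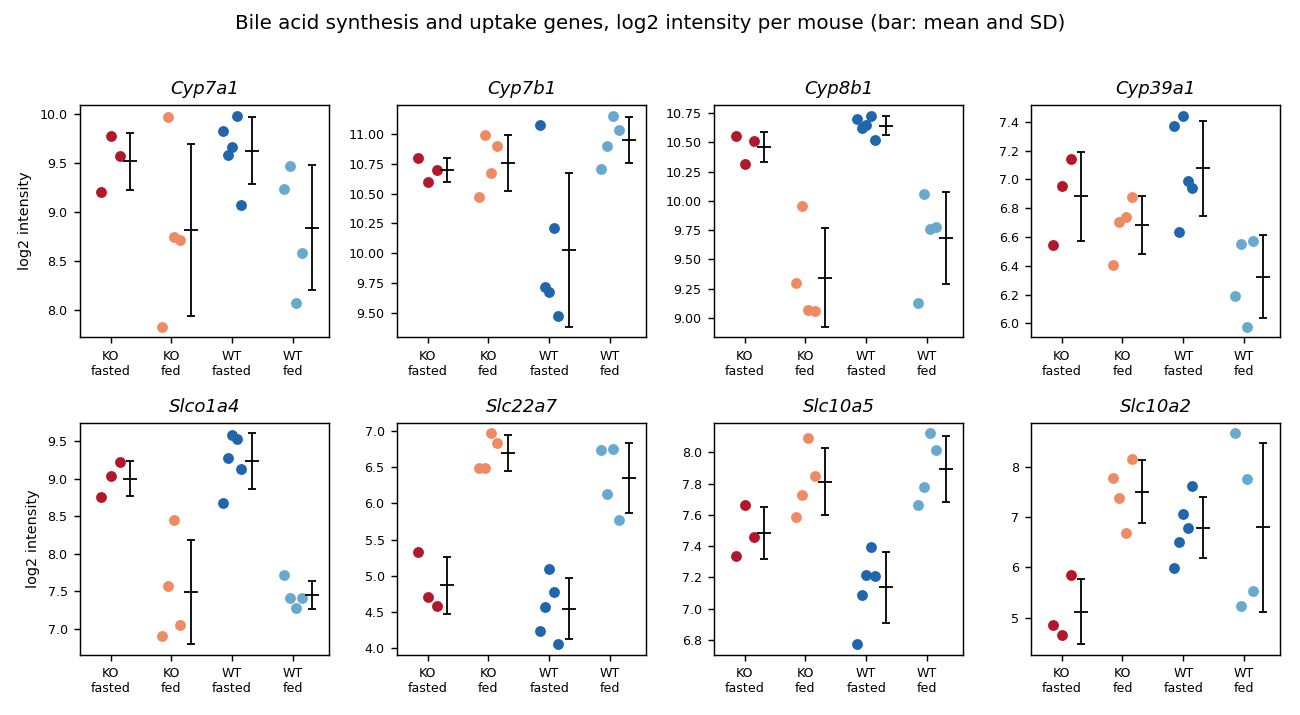
Log2 intensity (y axis) of synthesis and uptake genes in each mouse by group; each point is 1 mouse, and the bar gives mean and SD. Cyp8b1 is higher in all fasted mice, Slc22a7 is lower in all of them, and Slc10a2 spreads from 5.24 to 8.67 in fed WT mice.

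Uptake genes went both ways. Slco1a4, an organic anion transporting polypeptide of the basolateral membrane, was 8.75, 9.04 and 9.22 in fasted KO mice and 6.90, 7.57, 8.44 and 7.05 in fed KO mice. In WT mice it was 8.67, 9.28, 9.59, 9.53 and 9.13 after fasting and 7.71, 7.41, 7.28 and 7.40 in the fed state. The fasted mice lay above the fed mice in each genotype, fed KO mouse 3 coming nearest. Slco1a4 rose by 1.51 ± 0.29 in KO mice (2.86-fold, adjusted p = 0.00633) and by 1.79 ± 0.25 in WT mice (3.46-fold, adjusted p = 0.00024). Without fed KO mice 1 and 4 the KO difference was 0.997 and did not pass (adjusted p = 0.0909). Close relatives of Slco1a4 may share signal on this array, so its identity is uncertain to that extent.

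Slc22a7, the organic anion transporter OAT2, fell in both genotypes. It was 5.32, 4.70 and 4.58 in fasted KO mice and 6.48, 6.49, 6.97 and 6.83 in fed KO mice. It was 4.24, 4.57, 5.10, 4.77 and 4.06 in fasted WT mice and 6.74, 6.13, 6.75 and 5.77 in fed WT mice. Every fasted mouse lay below every fed mouse, whichever the genotype. Slc22a7 fell by 1.82 ± 0.26 in fasted KO mice (adjusted p = 0.000998) and by 1.80 ± 0.23 in fasted WT mice (adjusted p = 0.000115), differences that are 3.54-fold and 3.48-fold on the linear scale. Both calls were kept in every alternative.

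Slc10a5, a relative of the bile acid carriers whose own substrate is not settled, was 7.34, 7.67 and 7.46 in fasted KO mice and 7.59, 7.73, 8.09 and 7.85 in fed KO mice. These overlap, with a difference of -0.33 ± 0.15 (adjusted p = 0.302). Its level was 6.77, 7.09, 7.22, 7.39 and 7.21 in fasted WT mice and 7.66, 7.78, 8.12 and 8.01 in fed WT mice. The WT groups did not overlap, and Slc10a5 fell by 0.76 ± 0.13 in fasted WT mice (adjusted p = 0.0013). Slco2b1, another organic anion transporting polypeptide, fell by 0.52 ± 0.14 in fasted KO mice (adjusted p = 0.0466), with 7.70, 7.27 and 7.31 there and 8.14, 7.71, 7.93 and 7.998 in fed KO mice. Those 2 groups nearly met. Its WT difference was -0.34 ± 0.12 (adjusted p = 0.0957). The KO call for Slco2b1 was lost on leaving out any 1 of 12 mice (all but fed KO mouse 2, fasted KO mouse 1 and fasted WT mice 1 and 3), at differences of -0.52 to -0.44 and adjusted p of up to 0.209, and without fed KO mice 1 and 4 it was -0.39 (adjusted p = 0.344). Median centring, the replicate block and a fit of just the 2 compared groups lost this call too.

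Slc10a2, the apical sodium-dependent bile acid carrier of ileum and bile duct cells, was the most variable member. It was 4.85, 4.65 and 5.85 in fasted KO mice and 7.79, 7.38, 6.69 and 8.16 in fed KO mice, groups that did not overlap. In WT mice it was 5.99, 6.50, 7.06, 6.78 and 7.62 after fasting and 8.67, 5.24, 7.76 and 5.52 in the fed state, where 2 mice were high and 2 low. The fasting difference was -2.39 ± 0.65 in KO mice (adjusted p = 0.053) and -0.01 ± 0.57 in WT mice (adjusted p = 0.995). The KO difference passed without fed KO mouse 3 or without fed WT mouse 1, 2 or 4, at -2.66 to -2.39 and adjusted p of 0.0186 to 0.04. It was -1.92 without fed KO mice 1 and 4 (adjusted p = 0.344). Of the bile duct markers measured, 7 of 8, the means of Epcam, Cftr, Tspan8 and Anxa13 lay below the dim limit, and the summed intensity of the 7 was 45.4 to 52.3 in fasted KO mice, 45.0 to 55.0 in fed KO mice, 43.6 to 54.4 in fasted WT mice and 45.0 to 65.0 in fed WT mice. Of 7 intestinal markers, Vil1, Cdx2, Fabp6 and Cdh17 lay below it, with group means of 1.86 to 2.50. The sums over all 7 were 141 to 152 in fasted and 89.3 to 95.5 in fed KO mice. In WT mice they were 152 to 286 after fasting and 77.9 to 155 in the fed state. Mean Fabp2 was 6.66 in fasted and 5.64 in fed KO mice, and 6.88 in fasted and 5.97 in fed WT mice. Mean Lgals4 was 3.88 in fasted and 3.31 in fed KO mice, and 5.08 in fasted and 3.39 in fed WT mice. Cdx1 had group means of 3.78 to 4.06. Whether bile duct or intestinal cells had a part in the Slc10a2 values was not tested.

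Both main carriers of the hepatocyte for bile acids showed no called fasting difference. Slc10a1, the sodium-taurocholate cotransporting polypeptide, lay between 10.81 and 11.23 in all 16 mice, with a difference of 0.08 ± 0.10 in KO mice and 0.04 ± 0.09 in WT mice (intervals -0.12 to 0.29 and -0.14 to 0.22). The KO value turned to -0.08 without fed KO mice 1 and 4. Slco1b2, whose window holds the inverted repeat shown above, lay between 9.96 and 10.52, with a difference of 0.25 ± 0.11 in KO mice (adjusted p = 0.279) and 0.11 ± 0.10 in WT mice (adjusted p = 0.546). The KO value was 0.07 without fed KO mice 1 and 4.

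At the canalicular membrane, some members rose and others fell. Abcb4, the floppase that brings phosphatidylcholine into bile, was 9.99, 10.14 and 10.13 in fasted KO mice and 8.86, 9.42, 9.49 and 9.10 in fed KO mice. It was 10.30, 10.12, 9.95, 10.36 and 10.04 in fasted WT mice and 9.26, 9.01, 9.31 and 9.33 in fed WT mice. All fasted mice lay above all fed mice, and Abcb4 rose by 0.87 ± 0.14 in KO mice (1.83-fold, adjusted p = 0.00212) and by 0.93 ± 0.12 in WT mice (1.9-fold, adjusted p = 0.000136). Both calls were kept in every alternative.

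Abcb11, the bile salt export pump, was 10.33, 10.26 and 10.26 in fasted KO mice and 10.75, 10.998, 10.96 and 10.75 in fed KO mice. In WT mice it was 9.30, 10.26, 9.96, 10.08 and 10.12 after fasting and 10.67, 10.75, 10.93 and 10.85 in the fed state. Fasted mice lay below fed mice in each genotype, and fasted WT mouse 1 was the lowest. Its difference of -0.58 ± 0.16 in KO mice just missed the threshold (adjusted p = 0.058), and Abcb11 fell by 0.85 ± 0.14 in fasted WT mice (adjusted p = 0.00103). The KO difference passed, at the same size, without fasted WT mouse 1 or fasted WT mouse 2 (adjusted p = 0.00242 and 0.0491).

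Atp8b1, the aminophospholipid flippase that guards the canalicular membrane, was 7.10, 7.19 and 7.07 in fasted KO mice and 7.52, 7.41, 8.17 and 7.76 in fed KO mice. It was 6.46, 6.61, 7.08, 6.48 and 6.97 in fasted WT mice and 7.92, 7.59, 7.88 and 7.74 in fed WT mice. The groups did not overlap in either genotype. The KO difference was -0.59 ± 0.17 (adjusted p = 0.0689), or -0.70 without fed KO mouse 2, when it passed (adjusted p = 0.0349). Atp8b1 fell by 1.06 ± 0.15 in fasted WT mice (adjusted p = 0.000276).

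Abcg5 and Abcg8, the subunits of the sterol exporter, which share the divergent promoter shown above, ranked the fed mice of each genotype in the same order, but not the fasted mice. Abcg5 was 8.04, 8.01 and 8.06 in fasted KO mice, 6.60, 7.22, 8.13 and 7.02 in fed KO mice, 8.22, 8.38, 8.37, 8.19 and 8.02 in fasted WT mice and 7.64, 7.40, 7.75 and 7.496 in fed WT mice. Abcg8 was 7.99, 8.04 and 8.14 in fasted KO mice, 6.56, 7.22, 8.29 and 7.16 in fed KO mice, 8.01, 8.27, 8.35, 8.14 and 8.24 in fasted WT mice and 7.70, 7.27, 7.87 and 7.58 in fed WT mice. Fed KO mouse 1 was the lowest and fed KO mouse 3 the highest fed mouse for both genes, and fed KO mouse 3 lay above all 3 fasted KO mice and within the range of the fasted WT mice. In KO mice the fasting difference was 0.80 ± 0.23 for Abcg5 (adjusted p = 0.0671) and 0.75 ± 0.26 for Abcg8 (adjusted p = 0.145). Without fed KO mouse 3 these were 1.09 and 1.07 and passed (adjusted p = 0.00042 and 0.00161). The KO differences were 0.37 and 0.30 without fed KO mice 1 and 4. Abcg5 rose by 0.66 ± 0.20 in fasted WT mice at the edge of the threshold (adjusted p = 0.049), while Abcg8 differed by 0.60 ± 0.23 (adjusted p = 0.121) and passed at the same size without fed KO mouse 3 (adjusted p = 0.00966). That Abcg5 call was lost on leaving out any 1 of 14 mice (all but fed KO mice 1 and 3), at differences of 0.61 to 0.72 and adjusted p of up to 0.122. It was also lost under median centring and under a robust variance trended on intensity.

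Abcc2, the canalicular pump for conjugated bilirubin and other conjugates, was 10.28, 10.55 and 10.45 in fasted KO mice and 9.62, 10.20, 10.26 and 9.81 in fed KO mice, a difference of 0.46 ± 0.13 (adjusted p = 0.0658). Its level was 10.28, 10.37, 10.35, 10.47 and 10.52 in fasted WT mice and 9.92, 9.89, 10.08 and 10.12 in fed WT mice. Fasted mice lay above fed mice in each genotype, and Abcc2 rose by 0.39 ± 0.12 in WT mice (1.31-fold, adjusted p = 0.0403). The WT call was lost without fed WT mouse 1, 2 or 3, fasted WT mouse 2, 3, 4 or 5 or fasted KO mouse 3, at 0.36 to 0.42 and adjusted p of 0.0525 to 0.111. Quantile normalization, median centring and the replicate block lost this call as well. The KO difference passed at 0.53 to 0.55 without fed KO mouse 2 or 3 (adjusted p of 0.02 to 0.0349), and was 0.20 without mice 1 and 4. Abcg2, the breast cancer resistance protein, differed by 0.10 ± 0.14 in KO mice and -0.17 ± 0.12 in WT mice. Abcb1a, a multidrug transporter of the P-glycoprotein pair whose near copy Abcb1b may share signal, lay between 3.19 and 4.08 in all mice.

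**Figure D3:**
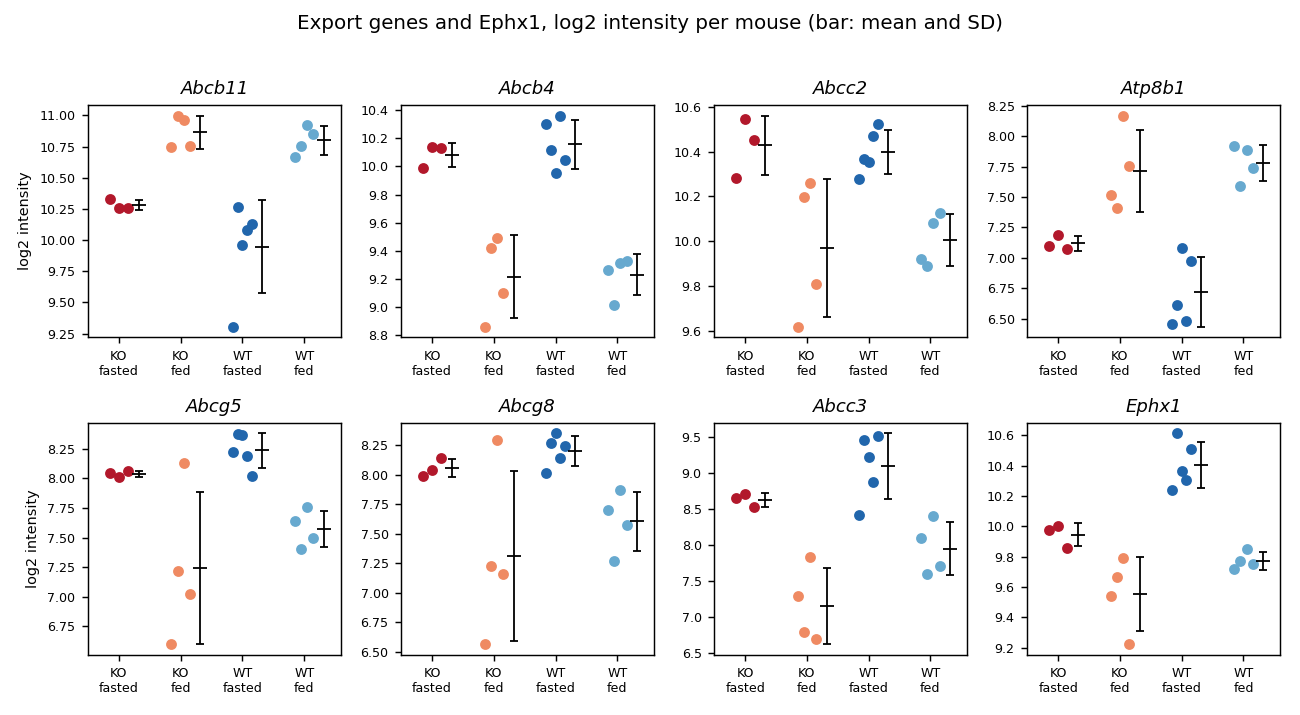
Log2 intensity (y axis) of export genes and Ephx1 in each mouse by group; each point is 1 mouse, and the bar gives mean and SD. Abcb4 is higher and Abcb11 and Atp8b1 are lower in every fasted mouse than in every fed mouse of the same genotype, and Abcg5 and Abcg8 have the widest spread in fed KO mice.

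Of the genes that export bile acids and conjugates back to blood, Abcc3 (MRP3) was called. It was 8.65, 8.72 and 8.53 in fasted KO mice and 7.29, 6.79, 7.84 and 6.69 in fed KO mice. It was 8.42, 9.46, 9.23, 8.88 and 9.52 in fasted WT mice and 8.10, 7.60, 8.41 and 7.71 in fed WT mice. Fasted KO mice lay well above fed KO mice, while fasted WT mouse 1 and fed WT mouse 3 nearly met. Abcc3 rose by 1.48 ± 0.28 in KO mice (2.79-fold, adjusted p = 0.00621) and by 1.15 ± 0.24 in WT mice (2.21-fold, adjusted p = 0.00599). Without fed KO mice 1 and 4 the KO difference was 1.32 and did not pass (adjusted p = 0.0728). Abcc4, which also exports bile acids to the blood, lay between 3.59 and 4.07 in all mice. Abcc6, a liver transporter needed for pyrophosphate release, differed by -0.01 ± 0.15 in KO mice and -0.35 ± 0.13 in WT mice (adjusted p = 0.108). Slc51a and Slc51b, the subunits of the organic solute transporter that carries bile acids out of ileal cells, were at most 2.51 and 2.90 in any mouse, at the dim end of the array.

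Ephx1, kept with the control genes for lack of another role, was called on fasting in WT mice. It encodes microsomal epoxide hydrolase and was 9.98, 9.9998 and 9.86 in fasted KO mice and 9.54, 9.67, 9.79 and 9.22 in fed KO mice. It was 10.24, 10.61, 10.36, 10.31 and 10.51 in fasted WT mice and 9.72, 9.77, 9.85 and 9.75 in fed WT mice. Fasted mice lay above fed mice in each genotype. Its KO difference was 0.39 ± 0.12 (adjusted p = 0.0763), or 0.47 without fed KO mouse 3, when it passed (adjusted p = 0.0281). Leaving out fed KO mice 1 and 4 gave 0.22 (adjusted p = 0.481). Ephx1 rose by 0.63 ± 0.10 in fasted WT mice (1.55-fold, adjusted p = 0.000733).

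Klb, the co-receptor through which FGF15 reaches Fgfr4, missed the threshold in both genotypes. It was 6.65, 7.11 and 6.90 in fasted KO mice, 5.47, 5.98, 6.74 and 5.92 in fed KO mice, 6.25, 6.70, 6.996, 6.99 and 7.06 in fasted WT mice and 6.30, 5.91, 6.38 and 5.84 in fed WT mice. The fasting difference was 0.86 ± 0.24 in KO mice (adjusted p = 0.0634) and 0.69 ± 0.21 in WT mice (adjusted p = 0.0543), and the groups overlapped in each genotype. The KO difference passed without fed KO mouse 3 or fasted WT mouse 1, and the WT difference without fed KO mouse 1, fed KO mouse 3 or fasted WT mouse 1, at 0.86 to 1.10 and at 0.69 to 0.83. Without fed KO mice 1 and 4 the KO difference was 0.53 (adjusted p = 0.455), while the WT difference passed at 0.69 (adjusted p = 0.0292). The receptor Fgfr4 differed by -0.27 ± 0.18 in KO mice and -0.30 ± 0.16 in WT mice. Gpbar1, the membrane bile acid receptor TGR5, lay between 3.11 and 3.88 in all mice.

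Next, KO mice were compared with WT mice in each feeding state. In fasted mice, limma called no member up or down, against 0.351% of all genes up and 0.186% down, and 6 of the 31 members had an unadjusted p under 0.05 (Cyp7b1, Slc10a2, Slc10a5, Abcb11, Atp8b1 and Ephx1). In fed mice it called none either, against 0.451% up and 0.226% down, and 3 members had an unadjusted p under 0.05 (Abcc3, Abcc6 and Slc51b). With background shares this low, a list of 31 would hold few calls or none. The share of all genes with an unadjusted p under 0.05 was not computed. Counts at that level, here and below, therefore show nothing particular to the members. The median KO difference over the members was -0.04 in fasted and -0.03 in fed mice, beside -0.02 and 0.01 over all genes.

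In fasted mice, Ephx1 and Slc10a2 lay apart between genotypes, both lower in KO mice, though neither passed. The share of all genes that lay apart was not computed for any comparison, so this shows nothing particular to the members. Ephx1 differed by -0.46 ± 0.11 (adjusted p = 0.0787). It passed at the same size without fed KO mouse 4 (adjusted p = 0.032) and without fed KO mice 1 and 4 together (adjusted p = 0.0269). Slc10a2, whose 3 fasted KO values all lay below the 5 fasted WT values, differed by -1.67 ± 0.62 (interval -2.99 to -0.35, adjusted p = 0.346). Cyp7b1 was higher by 0.67 ± 0.26 (adjusted p = 0.365) and passed at 0.93 without fasted WT mouse 1 (adjusted p = 0.0133). The remaining differences were 0.35 ± 0.14 for Slc10a5, 0.40 ± 0.16 for Atp8b1 and 0.34 ± 0.16 for Abcb11, with adjusted p of 0.398, 0.41 and 0.461. Fasted WT mouse 1 was the lowest of its group for 17 of the 31 members, against 19% of all genes, and enters all 6 values.

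In fed mice the largest difference with an unadjusted p under 0.05 was that of Abcc3, at -0.80 ± 0.26 (interval -1.35 to -0.26, adjusted p = 0.174). The levels given above overlap, since fed KO mouse 3 lay above 2 fed WT mice. Without that mouse the difference was -1.03 and passed (adjusted p = 0.0485), and without fed KO mice 1 and 4 it was -0.64 (adjusted p = 0.52). Abcg5, at -0.33 ± 0.21 with all mice (adjusted p = 0.537), also passed without fed KO mouse 3, at -0.63 (adjusted p = 0.0302), and turned to 0.10 without fed KO mice 1 and 4 (adjusted p = 0.899). Abcc6 was 6.72, 6.73, 6.93 and 6.36 in fed KO mice and 7.25, 7.01, 6.97 and 6.90 in fed WT mice, a difference of -0.35 ± 0.14 (adjusted p = 0.268), or -0.21 without fed KO mice 1 and 4 (adjusted p = 0.69). For Slc10a1, Slco1b2 and Abcb4 the intervals of the fed KO difference were -0.29 to 0.09, -0.35 to 0.08 and -0.28 to 0.26.

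**Figure D4:**
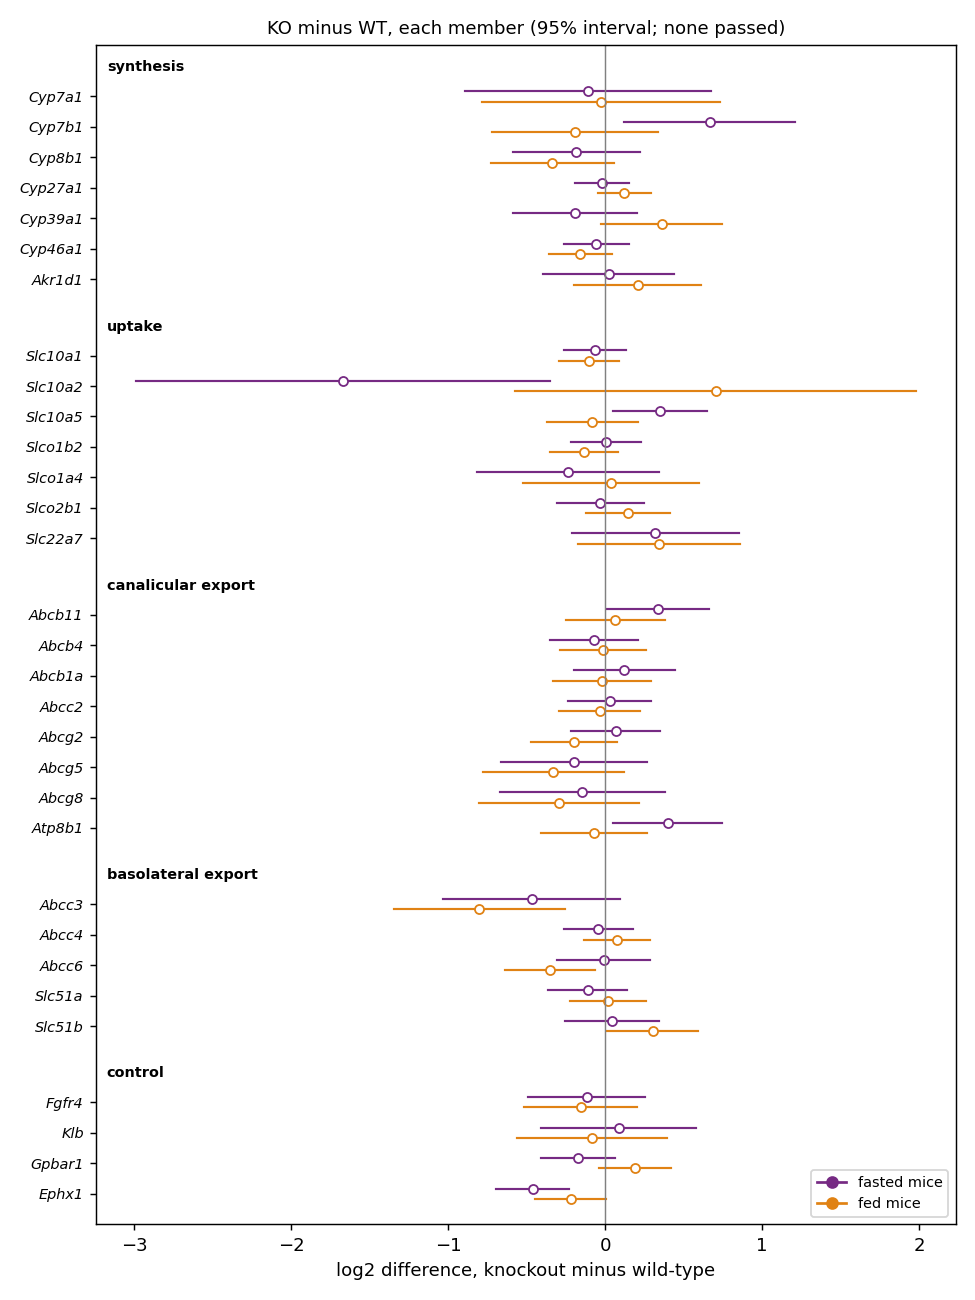
KO minus WT difference (log2 intensity, x axis) of each of the 31 members in fasted and in fed mice, grouped by role; points are limma estimates and bars 95% intervals. None passed an adjusted p of 0.05, and the widest intervals belong to Slc10a2.

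Whether the fasting response differed between genotypes was tested as an interaction (the KO response minus the WT response). No member was called, against 0.0100% of all genes up and 0% down, which is 2 genes in all; 5 members had an unadjusted p under 0.05. These were Slc10a2 at -2.38 ± 0.87 (interval -4.22 to -0.54, adjusted p = 0.304), Cyp7b1 at 0.86 ± 0.36 (adjusted p = 0.35), Cyp39a1 at -0.55 ± 0.26, Slc10a5 at 0.43 ± 0.20 and Gpbar1 at -0.36 ± 0.15. The intervals were wide enough to hold sizeable differences: for Cyp8b1 -0.41 to 0.72, for Abcb4 -0.45 to 0.33 and for Abcb11 -0.18 to 0.73. The mean of the KO differences in fasted and fed mice was also tested, with 0.963% of all genes called up and 0.587% down. Ephx1 was the member called, at -0.34 ± 0.08 (interval -0.50 to -0.18, adjusted p = 0.0341), and 1 other (Abcc3, at -0.64 ± 0.19) had an unadjusted p under 0.05 (adjusted p = 0.118). The Ephx1 call was lost on leaving out any 1 of 10 mice: fed KO mouse 1, any fed WT mouse, any fasted KO mouse, or fasted WT mouse 2 or 5. The differences were then -0.35 to -0.31, with adjusted p of 0.0557 to 0.113, and without fed KO mice 1 and 4 the difference was -0.25 (adjusted p = 0.123). Without fed KO mouse 3, Abcc3 (-0.75) and Abcg5 (-0.41) passed too, and Abcc3 passed without fasted WT mouse 1 (-0.72).

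Of 38 further genes of the pathway, 35 were measured: 12 of side chain shortening, conjugation and other steps (Cyp2c70 among them), 15 regulators and 8 of canalicular scaffold and trafficking. Among the 11961 brighter genes, 5.90% were called on fasting in KO mice and 14.6% in WT mice, in either direction. In KO mice, fasting called 4 of these 35 up and 4 down, against 1.87% of all genes up and 1.80% down. The largest were Onecut1, a liver transcription factor, at -2.09 ± 0.55, Nr1i3 (the receptor CAR) at 1.51 ± 0.22, the scaffold Slc9a3r1 at -0.99 ± 0.17, Nr1i2 (the receptor PXR) at 0.71 ± 0.18, Acot8, a peroxisomal thioesterase, at 0.67 ± 0.18, and Slc27a2, a very long chain acyl-CoA synthetase, at 0.57 ± 0.09. In WT mice fasting called 9 up and 3 down, against 3.30% of all genes up and 5.92% down. The largest were Cyp2c70 at -1.80 ± 0.18, Nr1i3 at 1.60 ± 0.19, Nr1i2 at 0.90 ± 0.15, Acot8 at 0.73 ± 0.15, Slc9a3r1 at -0.71 ± 0.15 and Slc27a2 at 0.65 ± 0.08. Of the KO calls, that of Nr1i2 was lost without fed KO mouse 1 or 2 or any fasted KO mouse, at 0.56 to 0.73. That of Acot8 was lost without any 1 of 12 mice (all but fed KO mouse 3 and fasted WT mice 1, 3 and 5), at 0.57 to 0.74. That of Onecut1 was lost without any 1 of 10 mice (fed KO mouse 1, 3 or 4, any fasted KO mouse, fasted WT mouse 2, 3 or 4, or fed WT mouse 2), at -2.18 to -1.84. These 3 calls were also lost without fed KO mice 1 and 4, as were those of Slc9a3r1, at -0.78 (adjusted p = 0.0728), and of the actin linker Ezr, at -0.65 (adjusted p = 0.0863). The replicate block lost the Acot8 call, and a fit of just the 2 compared groups that of Nr1i2. Median centring and a robust variance trended on intensity each lost that of Onecut1. That of Ezr was lost under quantile normalization, the replicate block and the fit of 2 groups. It was also lost without fed KO mouse 1 or 2 or any fasted KO mouse. FXR itself, Nr1h4, rose by 0.37 ± 0.11 in fasted WT mice (adjusted p = 0.0413), a call lost without fasted KO mouse 1, fasted WT mouse 1, 2, 3 or 4, or fed WT mouse 2, 3 or 4, at 0.30 to 0.39. Median centring and a fit of just the 2 compared groups lost this Nr1h4 call too.

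In fasted KO against fasted WT mice, 0.351% of all genes were called up and 0.186% down. Cyp2c70, the enzyme that makes muricholic acids in mice, was the gene of these 35 that differed between genotypes in fasted mice. It was 10.62, 10.38 and 10.25 in fasted KO mice and 9.18, 9.44, 9.82, 8.69 and 8.75 in fasted WT mice, with no overlap. Fed KO mice stood at 11.18, 11.06, 11.17 and 11.09, and fed WT mice at 10.96, 11.001, 11.15 and 10.81. The fasted KO mice were higher by 1.24 ± 0.19 (adjusted p = 0.00828), a call that all 24 alternatives kept at 1.04 to 1.40. Its interaction was 1.09 and did not pass (adjusted p = 0.175). Nr1i3 passed there as well without fed KO mice 1 and 4, at -0.65 (adjusted p = 0.0206), against an adjusted p of 0.239 with all mice. No gene of the 35 was called in fed mice or in the interaction. Over both feeding states, Cyp2c70 was higher in KO mice by 0.69 ± 0.13, and Nr1h4 and Nr1i3 were lower, at -0.38 ± 0.08 and -0.61 ± 0.15 (adjusted p = 0.0125, 0.0284 and 0.0442). Of all genes, 0.963% were called up and 0.587% down in that mean KO effect. The Nr1h4 call was lost without fed KO mouse 1 or 4, fasted KO mouse 1 or 3, or fed WT mouse 1 or 2, at -0.38 to -0.34. The Nr1i3 call was lost without any 1 of 13 mice (all but fed KO mice 2 and 3 and fasted WT mouse 1), at -0.65 to -0.52. Median centring lost the calls of both Nr1h4 and Nr1i3. The replicate block and a robust variance trended on intensity each lost that of Nr1i3. All 3 calls were lost without fed KO mice 1 and 4: Cyp2c70 was at 0.69 (adjusted p = 0.0566), Nr1h4 at -0.32 (adjusted p = 0.143) and Nr1i3 at -0.37 (adjusted p = 0.0897). Cyp2c70 belongs to a large family, so shared signal with its relatives is possible.

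From mouse to mouse, the members moved in part together within a group. Fed KO mouse 1 was the lowest of its group for 15 of the 31 members, against 21.8% of all genes, and fed KO mouse 3 the highest for 19, against 23.7%. Fed WT mouse 3 was the highest of its group for 17 members, against 22.7% of all genes. Canalicular export genes deviated by -0.45 to 0.35 from their means in fed KO mice, the widest range of any group, against 0.06 to 0.14 in fasted KO mice, -0.09 to 0.10 in fasted WT mice and -0.20 to 0.16 in fed WT mice. Fed KO mouse 4, with the highest acute phase level, was the lowest of its group for 9 members, against 24.9% of all genes, and fed KO mouse 3, with the third highest, was the highest for 19. Fed KO mouse 1, lowest for 15, had the second highest acute phase level. Whether the acute phase state had a part in the member values was not tested. Leaving fed KO mice 1 and 4 out kept mice 2 and 3 as the whole fed KO group. Abcb4 and Slc22a7 were then the members called on fasting in KO mice, of 218 genes in all. With all mice, 373 genes were called up and 359 down. Whether calls were lost through the mice left out or through the smaller group was not tested. Markers of Kupffer cells, the resident macrophages, had higher summed intensities in fed KO than in fed WT mice, while the fasted genotypes overlapped. The sums were 675 to 815 in fasted KO mice and 907 to 993 in fed KO mice. In WT mice they were 436 to 705 after fasting and 567 to 684 in the fed state. Of these 8 markers, 5 were higher in the mean KO effect at an adjusted p under 0.05, against 0.963% of all genes called up. In fed mice alone 2 were called up in KO mice, and in fasted mice alone 1. The part of Kupffer cells in the member values was not tested.

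**Figure D5:**
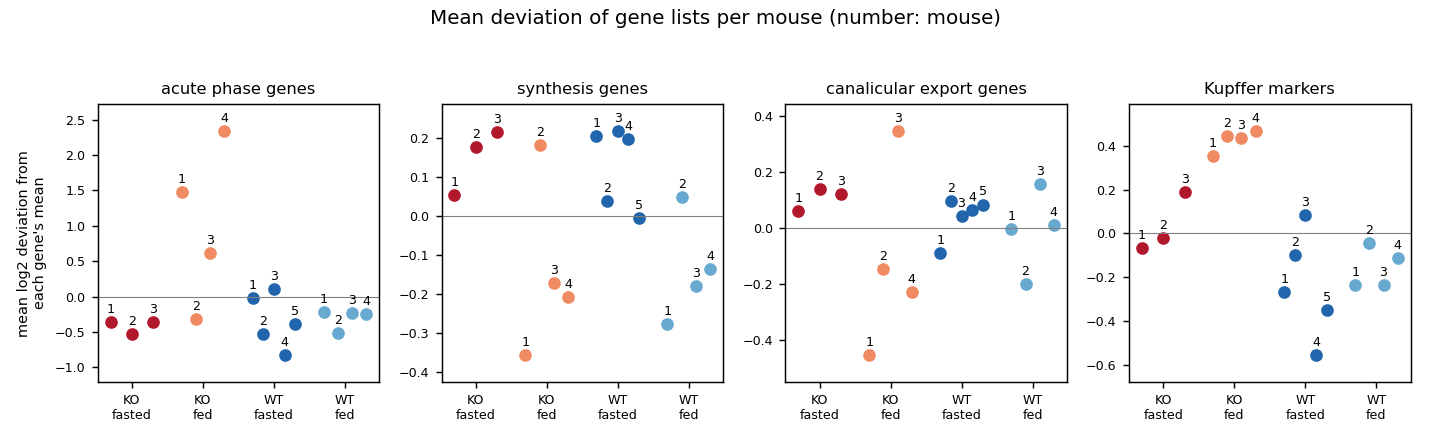
Mean deviation (log2, y axis) of each gene list from its genes' means over all 16 mice, 1 numbered point per mouse by group, for acute phase, synthesis, canalicular export and Kupffer marker genes. Fed KO mice 1 and 4 lie at 1.47 and 2.34 for acute phase genes, and Kupffer markers lie at 0.35 to 0.47 in fed KO mice against -0.23 to -0.04 in fed WT mice.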

How the data were processed

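Liver RNA of 16 mice was measured on 1-colour Affymetrix whole-transcript arrays, 1 per mouse. The deposited values are probe set intensities on a linear scale, which the authors normalized by RMA, per the submitters' processing notes, and the array medians of intensity were 8.08 to 8.61. The sources used here do not give the array's build or software version, and the number of arrays limits the precision. Here log2 was taken first. Of 35519 probe sets, 21780 had 1 gene symbol, 1605 several and 12134 none in the platform annotation. Probe sets with 1 symbol were used, the one with the highest mean standing for a gene (998 genes had more than 1), which left 19935 genes.

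All arrays entered 1 limma 3.58.1 fit in R 4.3.3 of 4 group means (12 residual, 4.55 prior degrees of freedom), with two-sided tests and Benjamini-Hochberg adjustment over all genes within each contrast. A ± after a log2 difference is the standard error of that fit, and groups lay apart where no values overlapped. The fit was also run on simulated data with added differences and noise drawn independently for each gene. That noise lacks the shared movement of genes within a mouse described above, so the run does not cover it. Every member is named, and up to 6 called genes of the other pathway lists are named per contrast by size of change; the members and lists were chosen with earlier results of these data known. Alternatives were quantile normalization, median centring, leaving out dim genes, the median over probe sets of 1 gene, a robust variance trended on intensity, a block for replicate number, fits with just the 2 compared groups, and leaving out each array. After seeing the data, the fit without fed KO mice 1 and 4 was added.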

Additional observations from a re-analysis of the deposited data

Results flagged for a closer look

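In the 93 groups of 4 or 5 mice checked over the 31 members, 3 had 1 mouse far from the others by Dixon's test, which chance alone flags in about 1 in 20 groups. Akr1d1 was lowest in fasted WT mouse 1, at log2 7.87, while the other 4 fasted WT mice lay between 8.67 and 8.94. Gpbar1 was highest in fed KO mouse 2, at log2 3.88, against 3.36 to 3.44 in the other 3 fed KO mice. Slc51a was highest in fasted WT mouse 5, at log2 2.51, against 1.91 to 2.04 in the other 4 fasted WT mice, all below the dim limit. The summed intensity of pancreatic acinar markers was also highest in fasted WT mouse 5, at 357, against 56.4 to 82.3 in the other fasted WT mice. The part of pancreatic RNA in the Slc51a value, or in other members' values of this mouse, was not tested.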

How the results depend on the processing

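Over the alternatives, 12 of the 20 calls of members were kept under every setting run and 8 were lost under at least 1; no called member changed sign. Members called on fasting in KO mice numbered 6, and 5 to 11 with 1 mouse left out, 11 (6 up, 5 down) without dim genes, and 2 without fed KO mice 1 and 4. On fasting in WT mice the count was 13, and 10 to 15 with 1 mouse left out. The count for KO against WT was 0 in fasted mice, with 0 to 1 when 1 mouse was left out and 1 without fed KO mice 1 and 4. It was 0 in fed mice, with 0 to 2 when 1 mouse was left out. The mean KO effect had 1 member, 0 to 3 with 1 mouse left out and 0 without fed KO mice 1 and 4. The interaction had 0 under every setting run. Among values, Abcg5 in fed KO against fed WT mice was -0.33 with all mice and turned to 0.10 without fed KO mice 1 and 4; the cause was not tested.

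The replicate numbers showed no clear pairing of the mice. Of 21 same-numbered pairs across groups, 6 had deviations correlated above 0.1 (range -0.25 to 0.23), and 4 of 15 mice correlated best with their own number. Pairs with different numbers ranged from -0.34 to 0.29. Correlations this weak cannot exclude that the numbers mark pairs or batches. With the number as a replicate block, 7 members were called on fasting in KO mice, 11 on fasting in WT mice, 0 in each KO against WT comparison and in the interaction, and 1 in the mean KO effect. Background correction and slide or scan batches could not be varied from the deposited values. With 3 to 5 mice per group, the most variable members, such as Slc10a2 and Cyp7a1, have wide intervals.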
